A study of Mus musculus with 10 samples.

Results

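The 35 genes described here cover glucose transport, the enzymes of glycolysis, lactate export and the transcriptional response to low oxygen. They were taken by name from a list of these pathways, and all 35 were found among the 17606 genes with a value in these libraries. By role the list held 2 glucose transporters, 11 genes of the steps from hexokinase to aldolase, and 8 of the steps from triose phosphate to pyruvate. A further 5 genes handle lactate and pyruvate, 3 belong to oxygen sensing, and 6 are other known targets of the hypoxia-inducible factor HIF.

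RNA had been sequenced from sorted cells of female C3H/HeN mice, labelled wild type, that carried tumors of SCC7 cells, a mouse squamous carcinoma line that stands for head and neck cancer in this study. The groups were tumor CD45-positive cells (n = 4), splenic CD45-positive cells (n = 3) and splenic CD45-negative cells (n = 3). Where tumor cells are named below, the CD45-positive cells sorted from tumors are meant, not the SCC7 carcinoma cells. CD45 is the surface phosphatase of white blood cells, encoded by Ptprc. Every group came from tumor-bearing animals, the labels name the sorted cells EPC without spelling it out, and they do not say whether replicates came from separate mice. The p-values below therefore cover no more than the spread among these libraries, which could be technical.

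Glycolysis splits glucose into pyruvate in the cytosol, and lactate dehydrogenase turns pyruvate into lactate, which leaves the cell through monocarboxylate transporters. Most steps can be run by several isozymes, each encoded by its own gene, and tissues differ in which they use. When oxygen is short, the prolyl hydroxylases of the Egln family no longer mark HIF-1α for destruction. HIF then binds a short core motif near its target genes, among them most glycolytic genes, and the target genes are transcribed. Maturing red cells lose their mitochondria and live on glycolysis, and only some of the isozymes they use are rare elsewhere.

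The deposited values, read as FPKM (fragments per kilobase of transcript, scaled to the mapped total), implied 16800000 to 21200000 fragments per library by a rough estimate. Genes at 1 FPKM or more numbered 10729 to 10946 in tumor, 9828 to 10890 in splenic CD45-positive libraries and 7852 to 7960 in splenic CD45-negative libraries. Globin transcripts took 1.8% to 10.4% of the summed FPKM in tumor, 29.4% to 52.2% in splenic CD45-positive libraries and 62.5% to 63.5% in splenic CD45-negative libraries. Replicate 1 of the tumor group and replicate 2 of the splenic CD45-positive group were unlike the rest of their groups, the second of them with Ptprc at 39.2 FPKM against 265 and 153. Tumor replicates 2 to 4 were closer to each other than any other libraries of a group. Replicates 2 and 3 were near sampling noise at the roughly estimated depth. A call of the 35 genes that changed with these 3 replicates averaged as 1 sample is named. The erythroid transcription factor Klf1 was at 0.09 to 0.45 FPKM in tumor libraries. Its spleen values were 271 to 613 FPKM for the CD45-positive gate and 704 to 788 FPKM for the CD45-negative gate. Klf1 is 1 of 8 erythroid markers, which together summed to 5970 to 40800 FPKM in tumor libraries. Their spleen sums were 129000 to 275000 FPKM for the CD45-positive gate and 325000 to 415000 FPKM for the CD45-negative gate. In every tumor library 3 of the 8 reached 1 FPKM, namely Hba-a1 (5916 to 40541), Alas2 (39.4 to 224) and Tfrc (11.7 to 18.4).

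Marker sums of some other cell types moved with both comparisons. Stroma and epithelial sums overlapped between the spleen gates, and endothelial sums overlapped between tumor and splenic CD45-positive libraries. The 10 monocyte and macrophage markers summed to 21900 to 41600 FPKM in tumor, 1450 to 4090 in splenic CD45-positive libraries and 55.9 to 104 in splenic CD45-negative libraries. The 10 granulocyte markers summed to 35 to 1700 FPKM in tumor, 22700 to 76000 in splenic CD45-positive libraries and 385 to 516 in splenic CD45-negative libraries. Of 7 epithelial markers, Krt8 (208 to 239 FPKM), Krt18 (95.4 to 164) and Cdh1 (1.56 to 2.66) exceeded 1 FPKM in the tumor libraries, whereas Epcam, Krt5, Krt14 and Trp63 did not, and the list summed to at most 2.84 FPKM in any spleen library. The 5 stroma markers summed to 133 to 191 FPKM in tumor, 0.14 to 0.47 in splenic CD45-positive libraries and 0.05 to 1.99 in splenic CD45-negative libraries. B cell markers, 5 in number, summed to 1.48 to 3.63 FPKM in tumor, 131 to 1170 in splenic CD45-positive libraries and 23.3 to 29.1 in splenic CD45-negative libraries. T and NK cell markers, 6 in number, summed to 2.66 to 17.4 FPKM in tumor, 24.7 to 150.0 in splenic CD45-positive libraries and 2.55 to 3.07 in splenic CD45-negative libraries. For the 5 endothelial markers the sums were 7.0 to 8.99 FPKM in tumor, 3.37 to 37.0 in splenic CD45-positive libraries and 0.37 to 0.58 in splenic CD45-negative libraries. The part of these cells in the results below was not tested. In such bulk samples, fewer cells of a type and less RNA per cell cannot be told apart.

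Most of the 35 genes were higher in tumor CD45-positive than in splenic CD45-positive cells, while a small set of isozymes and transporters was lower. The comparison set the same CD45 gate in 2 tissues side by side. Tested with limma on log2(FPKM + 1) across 11463 genes, 27 of the 35 genes were higher in tumor cells and 5 were lower (Benjamini-Hochberg adjusted p under 0.05). Among all tested genes 37.7% were called higher and 26.0% lower. The genes called lower were Slc2a3, Hk1, Bpgm, Pklr and Slc16a1, and Pfkm, Pfkfb4 and Ldhb were not called. Aldoc and Adm, below 1 FPKM in every splenic CD45-positive library, and Pklr, below it in every tumor library, could be called in 1 direction only. The median log2 change of the 35 genes was 2.28 and that of all tested genes 0.20. The split over all genes was 4327 higher and 2985 lower as deposited, 4660 and 1970 with a common sum, and 2964 and 4264 without globin genes, which shifted the median over all genes to 0.44 and -0.21. The 35 genes had 26 to 28 higher and 5 or 6 lower calls under every setting tried.

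Splenic CD45-positive cells in turn held more of most of these transcripts than splenic CD45-negative cells of the same organ. Only 31 of the genes passed the filter on low values here, since Aldoc, Egln3, Adm and Ankrd37 lay below it, and 25 of the 31 were called higher and none lower. Over all 9728 tested genes 50.5% were called higher and 5.01% lower. Of the 25 calls, 10 were of genes below 1 FPKM in every splenic CD45-negative library, which could be called in no other direction. Hk1, Pfkl, Pfkm, Bpgm, Pklr and Slc16a1 were not called. The median log2 change was 2.35 for the 31 genes and 0.67 for all tested genes. The split over all genes was 4912 higher and 487 lower as deposited, 2303 and 3558 with trimmed-mean scaling, and 2408 and 3283 with median-ratio scaling. The median log2 change over all genes was -0.32 and -0.25 under these 2 scalings. The median of the 31 genes was then 1.44 and 1.48. With either of them 21 of the 31 were higher and 3 lower (Hk1, Bpgm and Slc16a1), Pdk1 and P4ha1 lost their calls, and Tpi1 and Gapdh changed sign.

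**Figure D1:**
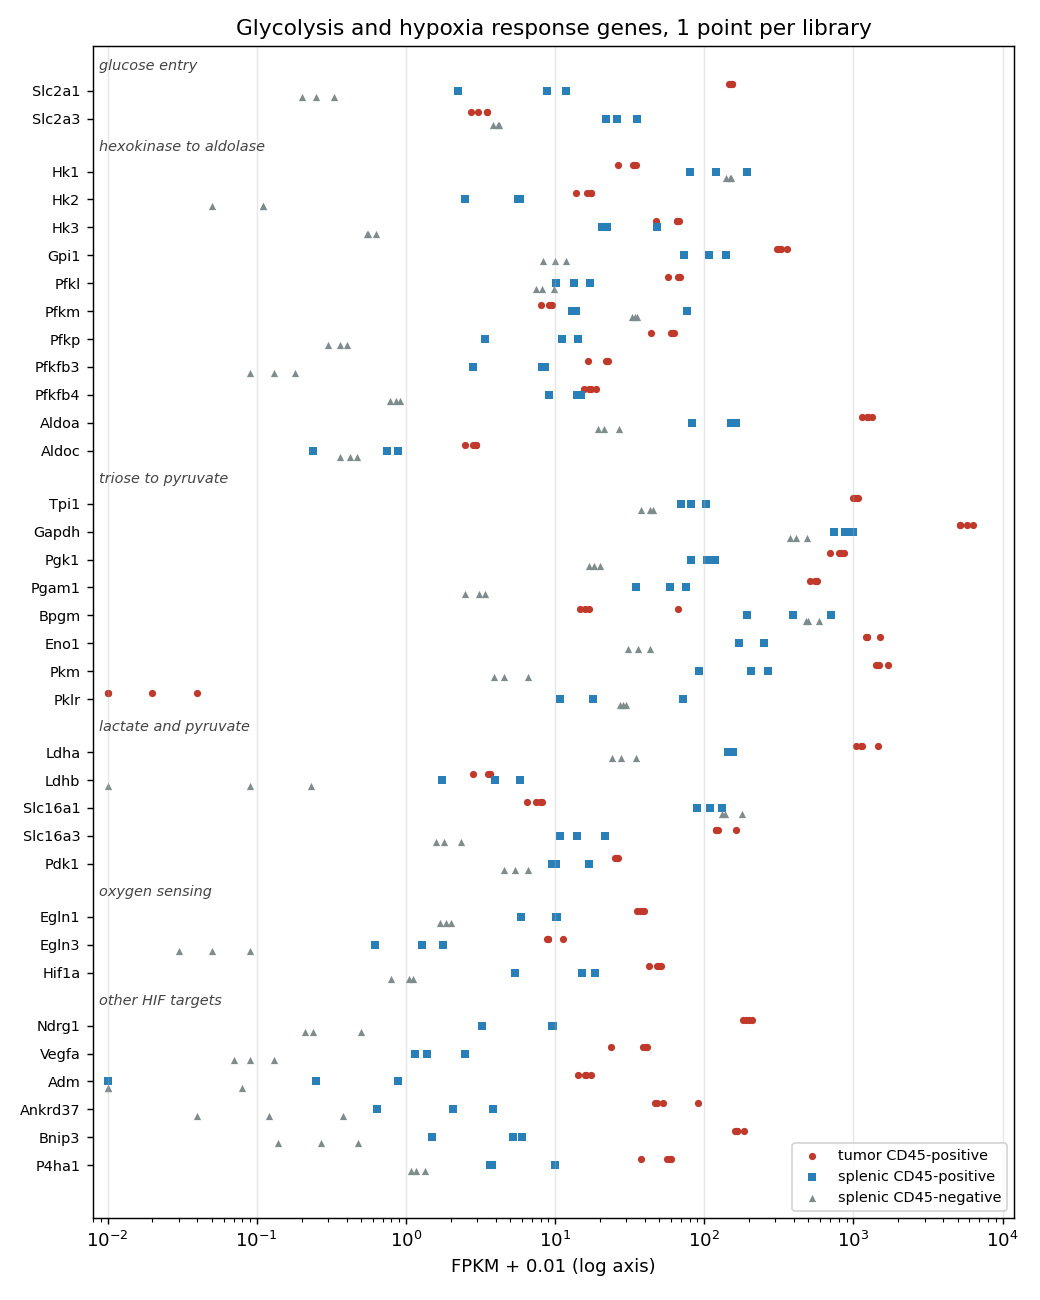
FPKM of each gene in each library (log axis, 0.01 added), ordered by role, with tumor CD45-positive libraries as red circles above splenic CD45-positive libraries as blue squares and splenic CD45-negative libraries as grey triangles. For 25 of the 35 genes every tumor library lies above every splenic CD45-positive library and each of these above every splenic CD45-negative library. Slc2a3, Hk1, Pfkm, Bpgm, Pklr and Slc16a1 are lower in every tumor library than in any spleen library. Values are sums of models as deposited, and neither order was counted over all genes.

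Library by library, 25 of the 35 genes followed 1 order of groups without overlap: tumor CD45-positive above splenic CD45-positive above splenic CD45-negative. That order is of the sums of models as deposited. Between the spleen gates the log2 changes of Pfkl, Tpi1, Gapdh and Pdk1, all among the 25, turned negative with trimmed-mean scaling. Aldoc and Adm were above both spleen groups in every tumor library, while the spleen groups overlapped. For 6 genes, namely Slc2a3, Hk1, Pfkm, Bpgm, Pklr and Slc16a1, every tumor library was below every spleen library of either gate in the sum of models. Hk3 and Ldhb overlapped between tumor and splenic CD45-positive libraries. Over all genes only pairs of groups were counted, not the orders across all groups. Over all tested genes, tumor libraries lay wholly above splenic CD45-positive libraries for 38.4% and wholly below for 28.1%, against 77.1% and 17.1% of the 35. For the 2 spleen gates the shares were 59.0% above and 7.23% below over all tested genes, against 83.9% above and none below for the 31 tested members.

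The oxygen-sensing genes were all higher in tumor CD45-positive than in splenic CD45-positive cells. Hif1a, which encodes the oxygen-regulated subunit of HIF-1 (Entrez gene 15251, chr12:73901324-73947554 of GRCm38.p6), was at 42.9, 49.5, 47.9 and 51.1 FPKM in tumor libraries 1 to 4. It stood at 18.5, 5.36 and 15.1 FPKM in splenic CD45-positive and at 0.79, 1.10 and 1.04 FPKM in splenic CD45-negative libraries. No library of 1 group reached into the range of another. The log2 change was 1.95 ± 0.36 (SE, limma adjusted p = 2.05e-03) between tumor and spleen and 2.67 ± 0.41 (2.09e-03) between the spleen gates. Hif1a is controlled mainly through protein stability, which these data do not measure.

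The 2 prolyl hydroxylases among the genes are both sensors and known HIF targets. Egln1 (PHD2), the main hydroxylase of HIF-1α, ranged from 35.3 to 39.3 FPKM in tumor, 5.89 to 10.3 in splenic CD45-positive libraries and 1.68 to 2.01 in splenic CD45-negative libraries (log2 changes 2.02 and 1.74). Egln3 (PHD3) was at 11.3, 8.82, 9.02 and 8.97 FPKM in tumor libraries and at 1.27, 0.61 and 1.77 FPKM in splenic CD45-positive libraries. Its log2 change was 2.28 ± 0.21 (SE, limma adjusted p = 5.25e-05). At 0.02 to 0.08 FPKM it was close to the value of a single fragment in splenic CD45-negative libraries and passed no filter there.

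The 6 other HIF targets included the largest rise among the 35 genes, and all 6 were called higher in tumor cells. Bnip3, a mitochondrial membrane protein that marks mitochondria for removal (Entrez gene 12176, chr7:138890836-138909506), was at 186, 161, 165 and 165 FPKM in tumor libraries. It stood at 6.03, 1.49 and 5.22 FPKM in splenic CD45-positive libraries and at 0.47, 0.13 and 0.26 FPKM in splenic CD45-negative libraries. The tumor libraries lay far above both spleen groups, and the spleen groups did not overlap. The log2 change was 5.15 ± 0.34 (SE, limma adjusted p = 9.85e-06) between tumor and spleen and 1.90 ± 0.40 (5.70e-03) between the spleen gates.

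Ndrg1, a hypoxia- and stress-induced cytosolic protein, followed with 189, 199, 208 and 181 FPKM in tumor and 9.61, 3.25 and 9.56 FPKM in splenic CD45-positive libraries (log2 4.64 ± 0.32, limma adjusted p = 1.22e-05). Ankrd37, an ankyrin repeat protein, was at 91.5, 46.6, 48.1 and 53.2 FPKM in tumor libraries, so that replicate 1 was well above the others, and at 3.85, 0.63 and 2.05 FPKM in splenic CD45-positive libraries (log2 4.34 ± 0.39, limma adjusted p = 5.10e-05). Adm, the vasodilator peptide adrenomedullin, was at 14.2, 16.2, 15.8 and 17.3 FPKM in tumor libraries and at 0.24, 0.0 and 0.88 FPKM in splenic CD45-positive libraries. Its log2 change of 3.67 became 5.63 with a pseudocount of 0.1 in place of 1. P4ha1, a subunit of collagen prolyl 4-hydroxylase, ranged from 37.8 to 60.2 FPKM in tumor and 3.65 to 10.1 FPKM in splenic CD45-positive libraries (log2 3.10). The tumor and spleen ranges of all 4 genes were apart.

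Vegfa, the main growth factor of blood vessels, was at 23.6, 39.1, 41.1 and 40.8 FPKM in tumor libraries. It was at 1.37, 1.15 and 2.50 FPKM in splenic CD45-positive and at 0.12, 0.06 and 0.08 FPKM in splenic CD45-negative libraries. Tumor replicate 1 was the lowest of the tumor libraries, and the groups did not overlap. The log2 changes were 3.80 ± 0.26 and 1.27 ± 0.23 (SE, limma adjusted p = 1.19e-05 and 3.51e-03). Vegfa is listed under 10 transcript models, several with identical values in every library, so its summed level counts some fragments more than once. From its highest model alone the log2 changes were 2.44 and 0.44 (limma adjusted p = 2.76e-05 and 0.0478).

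To show the sequence at the start of these genes, the 250 bases before the transcription start were read for the members with the largest rises in tumor cells that have 1 promoter window with a HIF core motif in it, and for the pair of genes called lower that also have 1 window. The sequences are from RefSeq for GRCm38.p6, 5′ to 3′ on the gene's strand. Capitals mark that motif, searched as ACGTG or GCGTG on either strand (CACGT or CACGC as printed), and matches may overlap.
Bnip3: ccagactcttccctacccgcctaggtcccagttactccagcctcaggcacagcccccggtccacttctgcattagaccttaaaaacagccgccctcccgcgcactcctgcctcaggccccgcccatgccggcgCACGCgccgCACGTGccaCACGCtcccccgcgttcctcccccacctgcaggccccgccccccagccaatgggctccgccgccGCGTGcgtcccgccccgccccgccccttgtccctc
Slc2a1: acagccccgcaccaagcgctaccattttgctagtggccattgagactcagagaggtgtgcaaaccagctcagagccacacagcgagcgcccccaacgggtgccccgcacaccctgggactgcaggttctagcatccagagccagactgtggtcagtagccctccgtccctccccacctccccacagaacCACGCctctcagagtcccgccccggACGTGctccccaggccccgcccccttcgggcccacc
Ankrd37: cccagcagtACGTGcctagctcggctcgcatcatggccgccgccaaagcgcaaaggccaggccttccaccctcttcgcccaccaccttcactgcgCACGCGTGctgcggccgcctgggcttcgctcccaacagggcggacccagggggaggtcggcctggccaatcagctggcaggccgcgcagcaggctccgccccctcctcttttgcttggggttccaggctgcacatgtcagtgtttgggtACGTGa
Adm: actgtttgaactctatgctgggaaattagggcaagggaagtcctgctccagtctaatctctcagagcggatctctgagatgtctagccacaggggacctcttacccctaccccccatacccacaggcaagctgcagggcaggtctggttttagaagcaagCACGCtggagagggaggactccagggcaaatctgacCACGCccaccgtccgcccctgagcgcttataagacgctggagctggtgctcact
Slc16a1: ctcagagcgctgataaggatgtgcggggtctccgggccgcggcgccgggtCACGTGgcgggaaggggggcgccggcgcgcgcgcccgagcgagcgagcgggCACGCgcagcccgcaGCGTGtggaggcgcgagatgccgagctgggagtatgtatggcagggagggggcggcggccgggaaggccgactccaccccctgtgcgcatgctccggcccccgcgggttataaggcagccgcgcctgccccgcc
Bpgm: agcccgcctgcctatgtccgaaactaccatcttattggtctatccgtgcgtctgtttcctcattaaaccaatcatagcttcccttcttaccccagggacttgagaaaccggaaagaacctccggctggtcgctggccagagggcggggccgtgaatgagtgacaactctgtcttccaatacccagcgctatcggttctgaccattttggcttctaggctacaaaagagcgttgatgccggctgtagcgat
The windows are chr7:138909507-138909756 on the minus strand for Bnip3, chr4:119108495-119108744 on the plus strand for Slc2a1, chr8:45999851-46000100 on the minus strand for Ankrd37, chr7:110627407-110627656 on the plus strand for Adm, chr3:104638414-104638663 on the plus strand for Slc16a1 and chr6:34476106-34476355 on the plus strand for Bpgm. Bnip3 held 5 matches between positions -117 and -35 relative to the start, of which the pair in CACGTG is the same site read on both strands. Slc2a1 held 2, Ankrd37 held 4 and Adm held 2. Slc16a1, which was lower in tumor cells, held 4 as well, and Bpgm held none. The motif is short and frequent. In windows of 250 bases before to 50 after the start it was found for 29 of the 33 members with a RefSeq window (87.9%), against 8391 of 13992 genes with a value here (60%). Counted by window it stood in 37 of 48 windows of members (77.1%) and 9699 of 17566 windows overall (55.2%), and 2 or more matches stood in 56.2% and 28.5%. Gpi1, Bpgm, Pklr and Tpi1 had none, and no RefSeq window was matched for Ndrg1 and Slc2a3. These are counts of letters, with no evidence here that HIF bound them.

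Glucose entry showed opposite movements of 2 transporters. Slc2a1 (GLUT1; Entrez gene 20525, chr4:119108745-119137330), the transporter of most cells' basal glucose uptake, was at 148, 154, 153 and 146 FPKM in tumor libraries. It was at 11.8, 2.24 and 8.81 FPKM in splenic CD45-positive and at 0.32, 0.19 and 0.24 FPKM in splenic CD45-negative libraries. The tumor libraries lay close together and were all above the spleen. The log2 changes were 4.35 ± 0.43 and 2.57 ± 0.48 (SE, limma adjusted p = 7.83e-05 and 3.79e-03), and 3.75 and 3.17 without splenic CD45-positive replicate 2.

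Slc2a3 (GLUT3), a high-affinity transporter of neurons and white blood cells (chr6:122727809-122802363), was at 3.02, 3.47, 3.49 and 2.74 FPKM in tumor libraries. It stood at 25.9, 22.0 and 35.3 FPKM in splenic CD45-positive libraries and at 4.13, 3.84 and 4.19 FPKM in splenic CD45-negative libraries. Splenic CD45-positive libraries were the high ones here, and tumor libraries were even below splenic CD45-negative ones in the sum of models. That last order depended on the model. The transcript model that led in splenic CD45-positive libraries (78.8% of the gene's FPKM there) was at 0.51 to 1.98 FPKM in tumor libraries. In splenic CD45-negative libraries that model was at 0.0 to 0.17 FPKM. For the summed models the log2 change was -2.76 ± 0.19 (SE, limma adjusted p = 1.19e-05) between tumor and spleen and 2.48 ± 0.22 (6.22e-04) between the spleen gates. As a share of the FPKM of both transporters, Slc2a1 made up 97.9% ± 0.186 in tumor (SD, n = 4), 20.2% ± 11.1 in splenic CD45-positive (n = 3) and 5.77% ± 1.28 in splenic CD45-negative libraries (n = 3). Such a share is a ratio within a library, so no scaling of libraries can move it.

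Shares of this kind were compared for 8 steps and both comparisons, 16 in all, with a two-sided exact permutation test. The smallest p that the test can give is 0.0571 for 4 against 3 libraries and 0.1 for 3 against 3, so no share could pass 0.05. In 15 of the 16 the groups did not overlap, and each of these had that smallest p (adjusted p = 0.107 over the 16). The exception was the Pfkl share between the spleen gates (exact p = 0.4). Granulocyte and macrophage marker sums, given above, moved with the same comparisons.

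**Figure D2:**
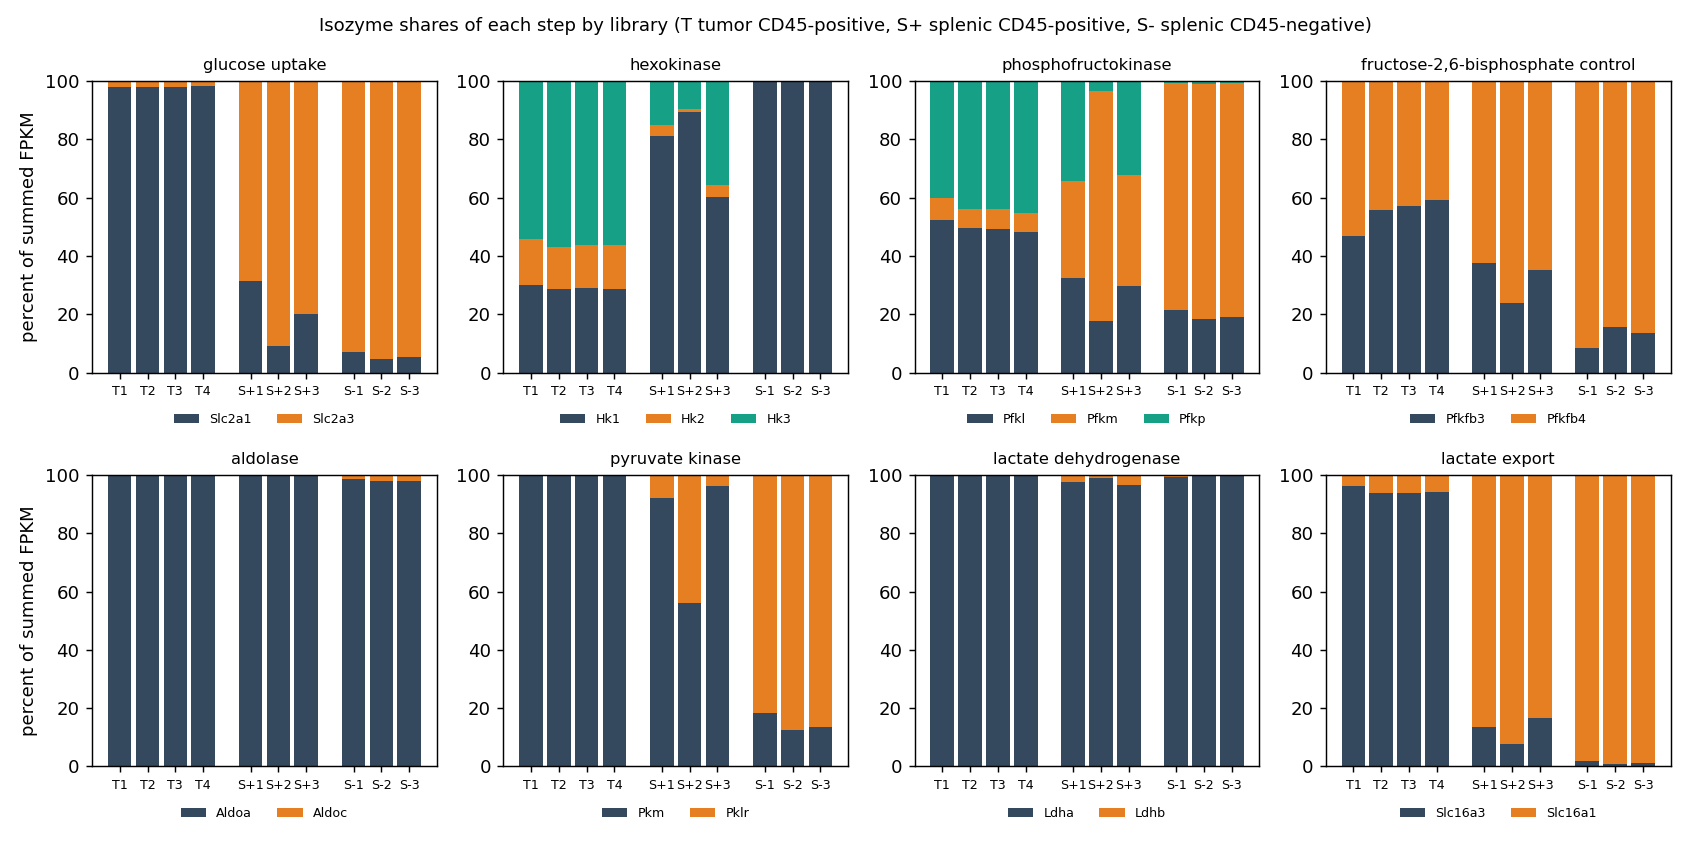
Share of each isozyme or transporter in the summed FPKM of its step, 1 stacked bar per library, with tumor CD45-positive (T), splenic CD45-positive (S+) and splenic CD45-negative (S-) libraries from left to right. Slc2a1, Pkm and Slc16a3 fill 97.9%, 100% and 94.5% of their steps in tumor libraries, against 5.77%, 14.8% and 1.31% in splenic CD45-negative libraries.

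Hexokinase, which traps glucose by phosphorylation, was encoded by a different mix of genes in each group. Hk1, the isozyme of brain and red cells (Entrez gene 15275, chr10:62268855-62379920), was at 26.3, 33.1, 34.8 and 33.7 FPKM in tumor libraries. It was at 120, 193 and 80.9 FPKM in splenic CD45-positive libraries and at 150, 140 and 151 FPKM in splenic CD45-negative libraries. In the sum of models, tumor libraries were all lower than the spleen (log2 -1.93 ± 0.28, limma adjusted p = 6.58e-04), and the spleen gates overlapped (log2 -0.25, adjusted p = 0.533). Without splenic CD45-positive replicate 2, the highest of its group, Hk1 was called lower in splenic CD45-positive cells (log2 -0.57, adjusted p = 0.0173).

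Hk2, the insulin- and hypoxia-regulated hexokinase, ranged from 13.8 to 17.5 FPKM in tumor, 2.50 to 5.83 in splenic CD45-positive libraries and 0.04 to 0.10 in splenic CD45-negative libraries (log2 1.67 and 2.32, both called higher). Hk3, a hexokinase of myeloid cells, ranged from 47.3 to 67.5 FPKM in tumor, 20.6 to 47.9 in splenic CD45-positive libraries and 0.54 to 0.62 in splenic CD45-negative libraries. Its rise in tumor cells (log2 1.09 ± 0.30, limma adjusted p = 0.014) lost its call without globin genes (0.125) and with tumor replicates 2 to 4 averaged (0.114). Hk3 made up 55.9% ± 1.30 of hexokinase FPKM in tumor (SD, n = 4), 20.1% ± 13.8 in splenic CD45-positive (n = 3) and 0.387% ± 0.0287 in splenic CD45-negative libraries (n = 3), where Hk1 held 99.6%. The sum of the 3 hexokinases was 87.4 to 120 FPKM in tumor, 134 to 216 in splenic CD45-positive libraries and 140 to 152 in splenic CD45-negative libraries. The lower Hk1 level in tumor libraries depended on the transcript model. The model that led Hk1 in both spleen groups (79.4% and 87.9% of its FPKM) was at 63.1 to 162 FPKM in spleen libraries. In tumor libraries it was at 5.16 to 13.3 FPKM. Another model led in tumor cells (37.1%), at 10.15 to 13.4 FPKM there and 9.43 to 11.3 FPKM in spleen libraries, so its ranges overlapped.

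Gpi1, which converts glucose-6-phosphate to fructose-6-phosphate, ranged from 309 to 362 FPKM in tumor, 73.5 to 140 in splenic CD45-positive libraries and 8.34 to 11.9 in splenic CD45-negative libraries (log2 1.65 and 3.25). Phosphofructokinase commits the sugar to glycolysis, and its 3 isozymes behaved differently. Pfkl, the liver type, ranged from 57.2 to 68.7 FPKM in tumor and 10.1 to 17.1 FPKM in splenic CD45-positive libraries (log2 2.22 ± 0.19, limma adjusted p = 4.03e-05). Pfkp, the platelet type, was at 44.0, 60.3, 61.1 and 62.6 FPKM in tumor, 14.2, 3.38 and 11.1 FPKM in splenic CD45-positive and 0.29, 0.39 and 0.35 FPKM in splenic CD45-negative libraries (log2 2.63 and 2.79, both called higher). Pfkl was at 7.46 to 9.86 FPKM in splenic CD45-negative libraries and was not called between the spleen gates (log2 0.59, limma adjusted p = 0.0721), but was without splenic CD45-positive replicate 3 (0.0293).

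Pfkm, the muscle type, which red cells also carry, was at 7.99, 9.33, 9.48 and 9.15 FPKM in tumor libraries. It stood at 13.8, 76.4 and 13 FPKM in splenic CD45-positive and at 35.6, 32.6 and 34.3 FPKM in splenic CD45-negative libraries. Splenic CD45-positive replicate 2 was high against the rest of its group. The log2 change between tumor and spleen was -1.34 ± 0.56 (SE, limma adjusted p = 0.0678) and was not called, but it was in 1 fit over all 10 libraries (-1.34, 0.0330) and without globin genes (-1.80, 0.0209). Without that replicate it was -0.53 and was called (0.00406), and without replicate 1 or 3 it was -1.72 and -1.76 (0.0400 and 0.0418). In splenic CD45-positive against CD45-negative cells Pfkm changed by -0.48 (adjusted p = 0.540), and by -1.29 without replicate 2 (3.45e-05). The lower Pfkm level in tumor libraries depended on the transcript model. The model that led in both spleen groups (90.7% and 92.7% of the gene's FPKM) was at 0.0 to 0.48 FPKM in tumor libraries. The model that led in tumor libraries (85.1%) was higher there, at 6.75 to 8.73 FPKM. Its spleen values were 1.24 to 2.02 FPKM for the CD45-positive gate and 0.88 to 1.87 FPKM for the CD45-negative gate. Pfkm held 6.87% ± 0.308 of phosphofructokinase FPKM in tumor, 50.1% ± 25 in splenic CD45-positive and 79.6% ± 1.5 in splenic CD45-negative libraries (SD, n = 4, 3 and 3).

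Pfkfb3 and Pfkfb4 make and break fructose-2,6-bisphosphate, the activator of phosphofructokinase. Pfkfb3 ranged from 16.7 to 22.7 FPKM in tumor, 2.82 to 8.51 in splenic CD45-positive libraries and 0.08 to 0.17 in splenic CD45-negative libraries (log2 1.65 and 2.62, both called higher). Pfkfb4 ranged from 15.7 to 18.9 FPKM in tumor and 9.08 to 14.9 in splenic CD45-positive libraries and was not called (log2 0.44, limma adjusted p = 0.0817), except without splenic CD45-positive replicate 3 (0.0481), with a common sum (0.0253) or in 1 fit over all 10 libraries (0.0445). From the highest model of Pfkfb4 alone the log2 change was 0.01 (limma adjusted p = 0.972). The model that led in both groups overlapped, at 8.92 to 13.3 FPKM in tumor and 8.65 to 13.1 FPKM in splenic CD45-positive libraries. In the sum of models Pfkfb4 was at 0.77 to 0.91 FPKM in splenic CD45-negative libraries, and between the spleen gates its log2 change was 2.87 ± 0.24. Of the aldolases, which split the 6-carbon sugar, Aldoa was at 1335, 1236, 1251 and 1151 FPKM in tumor, 164, 82.6 and 152 FPKM in splenic CD45-positive and 27, 21.3 and 19.5 FPKM in splenic CD45-negative libraries (log2 3.28 and 2.45). Aldoc, the brain aldolase, reached 2.50 to 2.96 FPKM in tumor libraries and stayed below 1 FPKM in every spleen library.

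The main line from triose phosphate to pyruvate was higher in tumor cells at each enzyme. Tpi1, which interconverts the triose phosphates, ranged from 993 to 1081 FPKM in tumor and 70.3 to 103 in splenic CD45-positive libraries (log2 3.61 ± 0.17, limma adjusted p = 1.52e-06). Gapdh, which oxidises glyceraldehyde-3-phosphate (Entrez gene 14433, chr6:125161852-125166467), was the most abundant of the 35 genes in every tumor library, at 6342, 5197, 5219 and 5770 FPKM. It was at 744, 989 and 884 FPKM in splenic CD45-positive and at 491, 376 and 415 FPKM in splenic CD45-negative libraries. Its log2 change was 2.69 ± 0.17 (SE, limma adjusted p = 7.35e-06) between tumor and spleen. The log2 changes of Gapdh and Tpi1 were 1.03 and 0.98 between the spleen gates, and both turned slightly negative with trimmed-mean scaling (-0.11 and -0.13) and with median-ratio scaling (-0.03 and -0.06).

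Pgk1, which makes the first ATP of the pathway, ranged from 700.3 to 859 FPKM in tumor and 81.3 to 119 in splenic CD45-positive libraries (log2 2.98). Pgam1, the phosphoglycerate mutase, ranged from 514 to 570 FPKM in tumor, 34.7 to 74.9 in splenic CD45-positive libraries and 2.49 to 3.37 in splenic CD45-negative libraries (log2 3.33 and 3.79). Eno1, the enolase of most tissues, ranged from 1216 to 1506 FPKM in tumor, 170 to 253 in splenic CD45-positive libraries and 31.0 to 43.3 in splenic CD45-negative libraries (log2 2.55 and 2.57). All 3 enzymes had separate ranges in the 3 groups. Gapdh, Tpi1, Pgam1, Eno1 and Ldha have near-identical processed copies elsewhere in the genome, so their levels are uncertain to the extent that the counting split reads among copies. For Eno1 the whole value stood in a numbered copy of its model, and the other entry of that model was at 0.0 FPKM in every library.

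Bpgm makes 2,3-bisphosphoglycerate, the compound with which red cells lower the oxygen affinity of haemoglobin (Entrez gene 12183, chr6:34476356-34505136). It was at 66.5, 14.8, 15.8 and 16.8 FPKM in tumor libraries, with replicate 1 high against the others. It stood at 395, 195 and 711 FPKM in splenic CD45-positive and at 481, 586 and 498 FPKM in splenic CD45-negative libraries. Tumor cells were lower (log2 -4.00 ± 0.61, limma adjusted p = 8.05e-04), and the spleen gates overlapped (log2 -0.45, adjusted p = 0.406). The share of globin transcripts, 10.4% in tumor replicate 1 and 1.8% to 1.87% in the other tumor libraries, moved with Bpgm, and its part was not tested.

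At pyruvate kinase, the last step to pyruvate, the 2 genes moved in opposite directions. Pkm, whose products serve most tissues (Entrez gene 18746, chr9:59656576-59679372), was at 1694, 1471, 1484 and 1411 FPKM in tumor libraries. It was at 207, 92.6 and 269 FPKM in splenic CD45-positive and at 6.61, 3.88 and 4.57 FPKM in splenic CD45-negative libraries. Each group lay wholly above the next, with log2 changes of 3.12 ± 0.34 and 4.88 ± 0.40 (SE, limma adjusted p = 1.32e-04 and 5.04e-04). The change between the spleen gates was the largest of the 31 genes tested there.

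Pklr, the pyruvate kinase of liver and red cells (Entrez gene 18770, chr3:89136122-89146815), was at 0.03, 0.0, 0.01 and 0.0 FPKM in tumor libraries. It stood at 17.9, 72.3 and 10.8 FPKM in splenic CD45-positive and at 29.7, 27.1 and 28.7 FPKM in splenic CD45-negative libraries. The tumor libraries were at or next to 0, with a log2 change of -4.65 ± 0.54 (SE, limma adjusted p = 1.99e-04) that was -7.79 with a pseudocount of 0.1 and -3.88 without splenic CD45-positive replicate 2. Pklr was not called between the spleen gates (log2 -0.22, adjusted p = 0.785), but was lower without splenic CD45-positive replicate 2 (log2 -0.98, 0.00194). Pkm made up 100% of pyruvate kinase FPKM in tumor libraries, 92.1%, 56.1% and 96.2% in splenic CD45-positive and 18.2%, 12.5% and 13.7% in splenic CD45-negative libraries. The low value was that of replicate 2, the library with 39.2 FPKM of Ptprc.

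Pkm gives rise to 2 splice forms, M1 of resting muscle and brain and M2 of proliferating and many other cells. The model of M2 held 96.2%, 93.0%, 93.2% and 93.1% of the FPKM of both models in tumor libraries, and 94.9%, 98.3% and 95.9% in splenic CD45-positive libraries. In splenic CD45-negative libraries it held 96.7%, 100% and 89.6%, of at most 6.61 FPKM in all. The M2 model led in every library, and the groups overlapped.

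**Figure D3:**
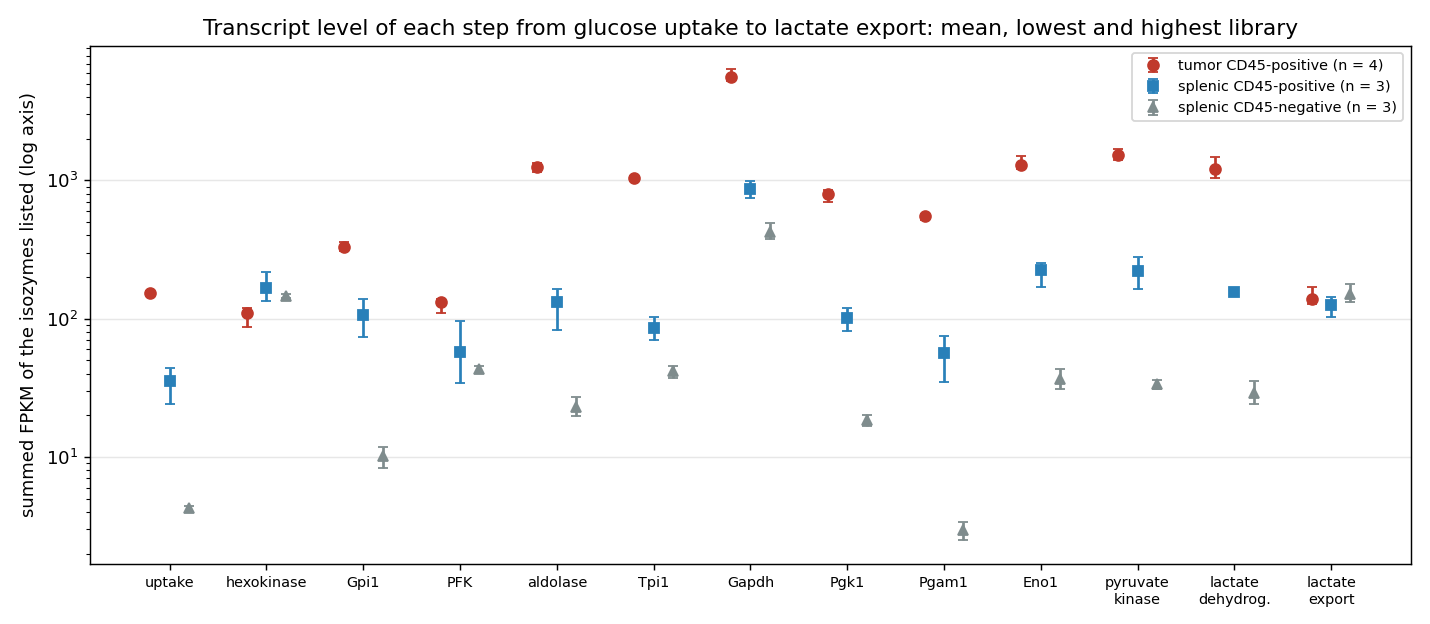
Summed FPKM of the isozymes of each step from glucose uptake to lactate export (log axis), as the mean of each group with bars to its lowest and highest library (tumor CD45-positive n = 4, splenic CD45-positive n = 3, splenic CD45-negative n = 3). For lactate export the ranges of tumor (128 to 170 FPKM) and both spleen groups overlap, the hexokinase sum is lowest in tumor libraries (87.4 to 120 FPKM), and aldolase to lactate dehydrogenase are highest in tumor libraries.

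At the end of the pathway lactate dehydrogenase A dominated in every group. Ldha, which favours the making of lactate (Entrez gene 16828, chr7:46842274-46855627), was at 1467, 1145, 1125 and 1037 FPKM in tumor, 155, 144 and 154 FPKM in splenic CD45-positive and 35.1, 27.8 and 24.2 FPKM in splenic CD45-negative libraries. The groups were apart, with log2 changes of 2.96 ± 0.16 and 2.35 ± 0.20 (SE, limma adjusted p = 3.75e-06 and 5.09e-04). Ldhb, the heart-type subunit, was at 2.82 to 3.66 FPKM in tumor and 1.73 to 5.78 in splenic CD45-positive libraries and was not called (log2 -0.03 ± 0.29, limma adjusted p = 0.925), and its sign turned with several settings. In splenic CD45-negative libraries it was at 0.0 to 0.22 FPKM. A pair of its models carries identical values in every library, so its summed level counts some fragments more than once. Ldha held 97.6% ± 1.22 of the sum of both subunits in splenic CD45-positive libraries (SD, n = 3) and 99.7% in both other groups.

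Lactate carriers moved in opposite directions, and the ranges of their sum overlapped. Slc16a3 (MCT4; Entrez gene 80879, chr11:120948484-120959000), the exporter of strongly glycolytic cells, was at 164, 123, 120 and 120 FPKM in tumor libraries. It was at 14.0, 10.8 and 21.7 FPKM in splenic CD45-positive and at 2.33, 1.59 and 1.79 FPKM in splenic CD45-negative libraries. The tumor libraries were all above the spleen (log2 3.05 ± 0.24, limma adjusted p = 2.64e-05), and splenic CD45-positive libraries were above splenic CD45-negative ones (log2 2.46 ± 0.28, 1.02e-03).

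Slc16a1 (MCT1; Entrez gene 20501, chr3:104638664-104658462), a carrier that takes up and releases lactate in many cells including red cells, was at 6.45, 8.15, 7.97 and 7.50 FPKM in tumor libraries. It stood at 89.6, 132 and 109 FPKM in splenic CD45-positive and at 131, 178 and 138 FPKM in splenic CD45-negative libraries. Tumor libraries were lower than any spleen library (log2 -3.70 ± 0.17, limma adjusted p = 1.78e-06). It was not called between the spleen gates (log2 -0.43, adjusted p = 0.134), but was lower without splenic CD45-positive replicate 2 (log2 -0.57, 0.0150) and without globin genes (log2 -0.70, 0.0239). The sum of both carriers was 128 to 170 FPKM in tumor, 104 to 143 in splenic CD45-positive libraries and 133 to 180 in splenic CD45-negative libraries. Slc16a3 made up 94.5% ± 1.17 of that sum in tumor (SD, n = 4), 12.6% ± 4.56 in splenic CD45-positive (n = 3) and 1.31% ± 0.434 in splenic CD45-negative libraries (n = 3).

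Pdk1, the kinase that turns off pyruvate dehydrogenase and is a known HIF target, was at 26.2, 25.5, 26.3 and 25.1 FPKM in tumor and at 10.1, 17.0 and 9.46 FPKM in splenic CD45-positive libraries (log2 1.07 ± 0.21, limma adjusted p = 2.66e-03). It was at 4.52 to 6.61 FPKM in splenic CD45-negative libraries. The rise between the spleen gates (log2 0.99, adjusted p = 0.0169) lost its call without splenic CD45-negative replicate 1 (0.0732) or 3 (0.0628).

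**Figure D4:**
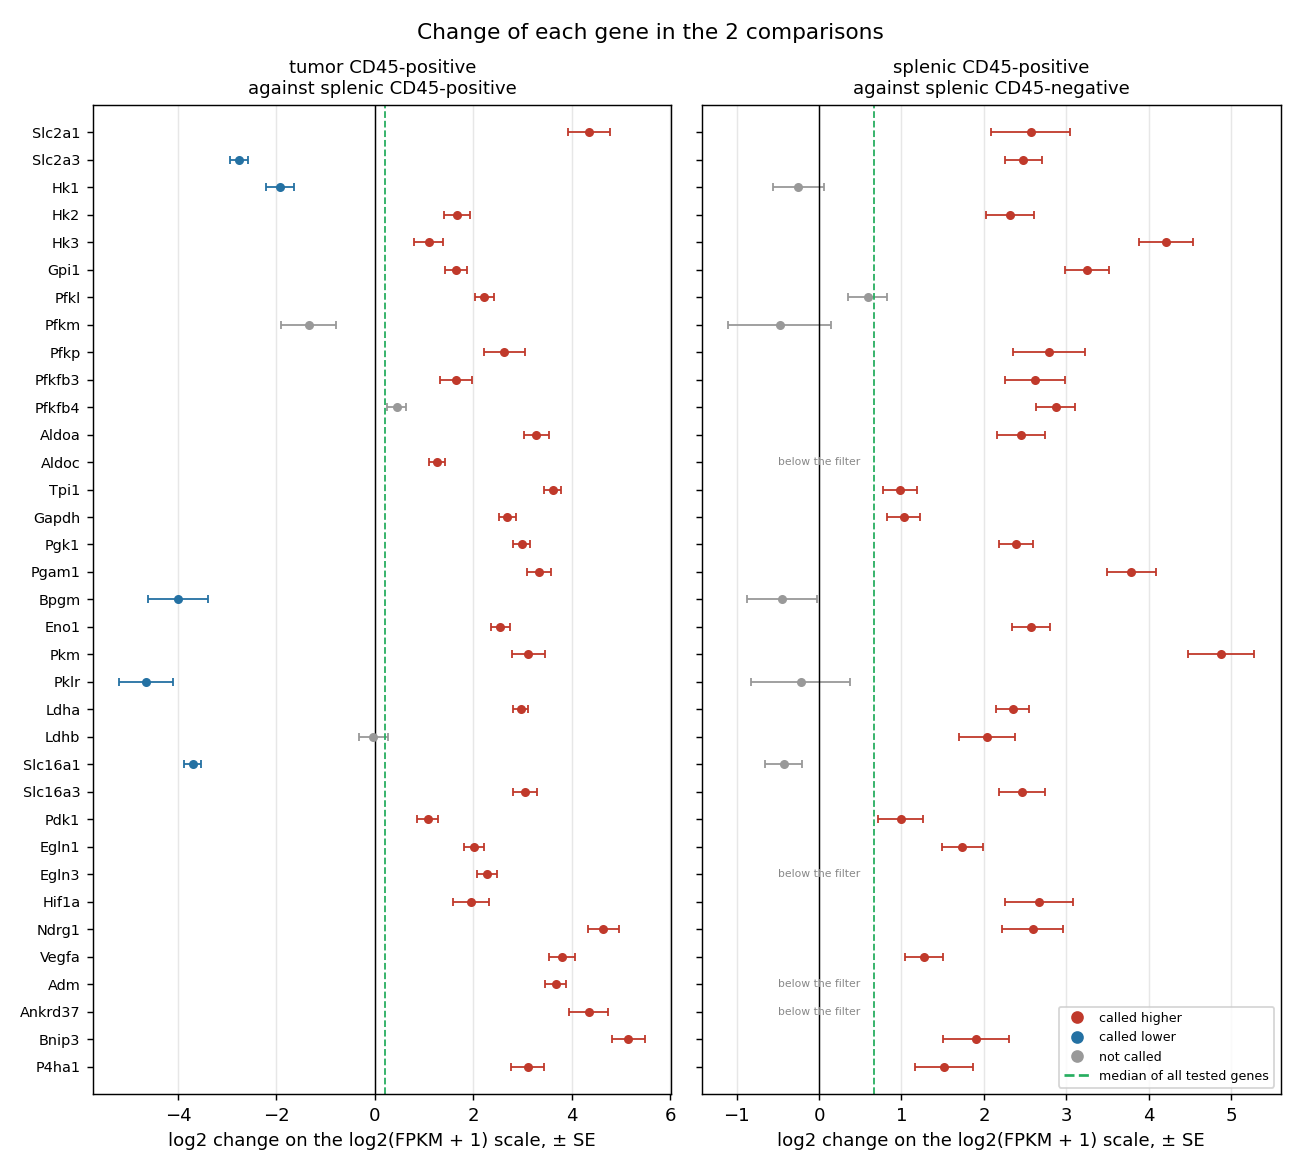
Log2 change of each gene on the log2(FPKM + 1) scale with its SE, for tumor against splenic CD45-positive libraries (left) and splenic CD45-positive against splenic CD45-negative libraries (right), with called genes in red (higher) or blue (lower) and the median of all tested genes as a dashed line at 0.20 and 0.67. Slc2a3, Hk1, Bpgm, Pklr and Slc16a1 lie left of 0 on the left, and no gene is called lower on the right.

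Genes of the same pathways outside the 35 were also counted in tumor against splenic CD45-positive cells, where 37.7% of all tested genes were higher and 26.0% lower. Of 25 other HIF targets, 20 were tested, 11 were higher and 3 lower (median log2 1.62; 11 to 14 and 3 or 4 over the settings tried that keep the filter). Hilpda, a lipid droplet protein, rose to 172 ± 26.2 FPKM in tumor cells against 5.77 ± 2.77 in splenic CD45-positive cells (SD, n = 4 and 3; log2 4.77). Car9, the carbonic anhydrase used as a marker of hypoxia, rose by 4.41 and the collagen lysyl hydroxylase Plod2 by 4.03 on the log2 scale. Lower genes included Tfrc, which imports transferrin-bound iron and is also one of the erythroid markers (log2 -5.30), and Bnip3l, which clears mitochondria from maturing red cells (log2 -2.08).

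Of 28 other isozymes and side enzymes of glycolysis, 16 were tested, with 10 higher and 3 lower (median log2 0.80; 8 to 11 and 3 or 4 over the same settings). Eno2, the neuronal enolase, was at 14.9 ± 0.881 FPKM in tumor cells against 0.11 ± 0.0755 in splenic CD45-positive cells (SD, n = 4 and 3; log2 3.84). The insulin-responsive glucose transporter Slc2a4 fell by 4.11 to 0.0425 ± 0.0206 FPKM in tumor cells, against 17.2 ± 3.15 in splenic CD45-positive cells. The 8 genes of the pentose phosphate branch, which draws glucose-6-phosphate off for NADPH and ribose, had 2 higher and 4 lower (median log2 -0.35; 1 to 3 and 2 to 4 over the settings). Among them Pgls rose by 1.23, and Taldo1, transaldolase, fell to 198 ± 4.93 FPKM in tumor cells against 403 ± 20.1 in splenic CD45-positive cells (SD, n = 4 and 3; log2 -1.02, limma adjusted p = 2.63e-04). Of 12 tested genes for the entry of pyruvate into mitochondria and its use there, 3 were higher and 2 lower (median log2 -0.12). Over the settings 2 to 4 were higher and 1 to 7 lower. Pyruvate carboxylase, Pcx, fell by 3.01 on the log2 scale. Of 9 tested partners of oxygen sensing 4 were higher and 1, the asparagine hydroxylase Hif1an, was lower (median log2 0.33; 2 to 5 and 1 to 3 over the settings), with Epas1, which encodes HIF-2α, up by 2.06.

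Between the spleen gates the same lists had 7 of 11 other isozymes higher and 1 lower, 5 of 8 pentose phosphate genes higher and none lower, and 2 of 11 mitochondrial pyruvate genes in each direction. Of the partners of oxygen sensing 2 of 8 were higher and none lower, and of the other HIF targets 9 of 15 were higher and 1 lower. Over all tested genes 50.5% were higher and 5.01% lower. The medians were 1.58, 0.94, 0.12, 0.41 and 0.73, beside 0.67 for all tested genes. With trimmed-mean scaling the 5 lists in the same order had 6, 3, 0, 0 and 2 higher and 3, 2, 7, 5 and 5 lower. Both higher partners of oxygen sensing, Arnt and Vhl, lost their calls with trimmed-mean scaling (adjusted p = 0.146 and 0.874) and with median-ratio scaling (0.238 and 0.681), and Arnt also without any 1 splenic CD45-negative library (0.0667 to 0.0755) or without splenic CD45-positive replicate 1 (0.0555). Pgd and G6pdx, the oxidative enzymes of the pentose phosphate branch, rose by 3.33 and 1.83 on the log2 scale (limma adjusted p = 4.86e-04 and 7.82e-04). Slc2a4 fell by 1.51 and Pcx by 1.35. These genes were lower in splenic CD45-positive than in splenic CD45-negative cells and lower again in tumor cells.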

How the data were processed

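RNA-seq libraries of sorted mouse cells were compared, grouped by the labels. Per the labels' protocols, total RNA was extracted with TRIZOL and libraries were made by a company. Per the submitters' processing notes the build was GRCm38.p6. Aligner, counting program, annotation and strand setting were not given in the sources used here. A table per library was deposited by the authors, with a value for each of 61685 RefSeq models and no unit named. The deposited values were read as FPKM because their sums differed between libraries (801072 to 1367791), while multiplied by transcript length in kilobases (known for 22925 models) they summed to 949480 to 1132889 in every library. Depth was estimated from the smallest steps between low values. The fit of these steps was weak, with scores of 0.17 to 0.38 where 1 is a perfect fit, so depth is rough. At 1 FPKM a transcript of 1 kilobase corresponds to roughly 16.8 to 21.2 fragments, which makes lower values coarse.

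Models of a gene were summed, giving 17606 genes. Models without a symbol, 1508 in number, held 0.425% to 1.06% of a library's FPKM and were left out. Each comparison was fitted over all genes with limma 3.58.1 (R 4.3.3), with an intensity trend, on log2(FPKM + 1). A gene entered if 3 or more of the compared libraries reached 1 FPKM, and genes were called at a Benjamini-Hochberg adjusted p below 0.05. Adjusted p-values are those of limma unless a permutation test is named, and fold changes on this scale understate the change of low genes. The scripts were tested on simulated data. No test set tumor against splenic CD45-negative libraries, since both tissue and gate differ. The other settings tried were another pseudocount, no filter, leaving out each replicate, other scalings, 1 fit over all libraries, the replicate number as a block, the highest model per gene and no trend. Averaging tumor replicates 2 to 4 was added after seeing the data. The members and all gene lists were chosen with earlier results of these data known. Named genes were all 35 members and, from each neighbouring list, up to 3 called genes of largest change in each direction. Other software was matplotlib 3.10.9, scipy 1.17.1, pandas 2.3.3 and numpy 2.4.6 under Python 3.11.15.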

Additional observations from a re-analysis of the deposited data

Results flagged for a closer look

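In the tumor group of 4 libraries, 13 of the 35 genes had 1 library whose gap to its nearest neighbour took up more than 0.829 of the group's range (Dixon's limit for 4 samples), which chance gives in about 1 of 20 groups. In 12 of them the library was replicate 1. The rate of 1 in 20 holds for 4 independent libraries. Tumor replicates 2 to 4 were closer to each other than to replicate 1, so that rate cannot be applied to these flags. Tumor replicate 1 was low for Hk3 (47.3 FPKM against 65.7 to 67.5 in the other tumor libraries), Pfkl (57.2 against 66.8 to 68.7), Pfkp (44.0 against 60.3 to 62.6), Pfkfb3 (16.7 against 22.0 to 22.7), Vegfa (23.6 against 39.1 to 41.1) and P4ha1 (37.8 against 56.5 to 60.2). It was high for Bpgm (66.5 against 14.8 to 16.8), Eno1 (1506 against 1216 to 1243), Slc16a3 (164 against 120 to 123), Egln3 (11.3 against 8.82 to 9.02), Ankrd37 (91.5 against 46.6 to 53.2) and Bnip3 (186 against 161 to 165). Ldhb was low in tumor replicate 2 (2.82 against 3.56 to 3.66). Replicate 1 also differed from the other tumor libraries in globin transcripts (10.4% of FPKM against 1.8% to 1.87%) and in the granulocyte gene S100a8 (1060 FPKM against 17.6 to 23.9), and the part of either in these values was not tested.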

How the results depend on the processing

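Without any 1 tumor or splenic CD45-positive library, 27 or 28 of the 35 genes were higher and 5 or 6 lower in tumor cells. Of all 11463 tested genes, 3836 to 4993 were then higher and 2605 to 3409 lower. Between the spleen gates 24 to 26 of the tested members were higher without any 1 library, beside 3761 to 5315 of all 9728 tested genes. Over all genes, calls of lower genes between the spleen gates ranged from 206 to 1422 when 1 library was left out, and without splenic CD45-positive replicate 2 the members called lower were 4. In tumor against splenic CD45-positive cells, calls of lower genes over all genes were 1970 with a common sum and 1864 with tumor replicates 2 to 4 averaged. The log2 change of Ldhb turned to 0.03 without splenic CD45-positive replicate 1, 0.26 without replicate 3 (-0.40 without replicate 2), 0.03 without tumor replicate 2, 0.19 with a common sum and 0.07 from the highest model, and that of Pfkfb4 to -0.0 without globin genes. Between the spleen gates, higher and lower calls over all genes were 2303 and 3558 with trimmed-mean scaling and 2408 and 3283 with median-ratio scaling. Lower calls were 121 with a common sum and 891 without globin genes, and members called lower were 3, 3 and 1 with trimmed-mean scaling, median-ratio scaling and no globin genes. Under trimmed-mean and median-ratio scaling the log2 changes turned to -0.45 and -0.38 for Pfkl, -0.13 and -0.06 for Tpi1, -0.11 and -0.03 for Gapdh and -0.33 and -0.25 for Arnt. Under trimmed-mean scaling alone Pdk1 turned to -0.01 and Dlat to -0.06. Leaving out 1 library put Bpgm at -0.90 to 0.03 (above 0 without splenic CD45-positive replicate 2), Hk1 at -0.57 to 0.06 and Pklr at -0.98 to 0.34 (both above 0 without replicate 3). With a common sum Hk1 and Pklr turned to 0.14 and 0.16. The cause of these reversals was not tested. With tumor replicates 2 to 4 averaged, the calls of Hk3, Dlat, H6pd, Mpc2, Rbx1 and Tkt were lost in tumor against spleen (adjusted p = 0.114, 0.0614, 0.127, 0.123, 0.0566 and 0.0539). A pseudocount of 0.1 and a fit without a trend changed no member count.

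Deviations of same-numbered libraries from their group means correlated at -0.175 to -0.043 for tumor and splenic CD45-positive and at -0.015 to 0.118 for the spleen gates. With so few libraries, and no correlations of differently numbered ones beside them, these values cannot decide whether the numbers mark pairs. With the replicate number as a block, 27 members were higher and 5 lower in tumor cells (3422 and 2263 over all genes), and 25 and 0 between the spleen gates (4444 and 407). Shares of isozymes taken from the highest model alone moved, for example to 16.6% for Hk1 in tumor libraries. At these depths, levels of the genes below 1 FPKM in splenic CD45-negative libraries, 14 of the 35, rest on few fragments.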
